A study of Mus musculus with 4 samples.

Results

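The activity-regulated immediate early genes described here are Fos, Fosb, Junb, Egr1, Egr2, Egr3, Arc, Npas4, Nr4a1 and Ier2. They were chosen by name, each as the probe set of the array with only that gene symbol, and 10 of 10 were found among the 19938 genes measured. The tissue was the hypothalamus of male CDF1 mice, a cross of BALB/c and DBA/2, aged 10 to 11 weeks and killed on day 20 after an injection into the flank. Tumour-bearing mice had been given C26 cells, a mouse colon adenocarcinoma line whose growth in mice is used as a model of cancer cachexia, and control mice a sham injection of the same 0.2 ml of buffered salt solution. Mice of every group had been anaesthetised for the injection, were housed singly and ate a purified diet freely.

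Each group was 1 array. The control array held pooled RNA of 4 mice, the array of 500000 cells (0.5M) pooled RNA of 4 mice, and the array of 1000000 cells (1M) pooled RNA of 3 mice. The array of 2000000 cells (2M) held RNA of 1 mouse according to its source label, although its title calls it a pool. Values are log2 expression after RMA, which aligns the arrays to a common distribution. Levels of different genes are not set against each other here. With no replicate array, a difference between 2 arrays has no replicate check, and in a tissue extract fewer cells expressing a gene and less RNA per cell cannot be told apart.

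Immediate early genes are transcribed within minutes of a stimulus, without the need for new protein, and their RNA decays quickly. In neurons the stimulus is mostly calcium entry during firing, which acts through kinases on the factors CREB and SRF already bound at these promoters. Their products are in large part transcription factors that switch on a slower set of genes. In the hypothalamus, Fos staining is a common way to see which neurons were recently active, for example after fasting, stress or peripheral inflammation.

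The immediate early genes lay close to the control level in the tumour-bearing hypothalami, and 0 of the 7 that passed the filter on low values passed the limma test in either direction, where 0.0502% of all genes passed higher and 0% lower. Without that filter all 10 were tested, and 0 passed. The median difference of the 10 genes from control in log2 was -0.12 on the 0.5M array, -0.01 on the 1M array and -0.11 on the 2M array. For comparison, over the 11963 genes with mean expression at or above 6.59 log2, the 40th percentile over genes and the filter used throughout, those medians were 0.01, 0.04 and 0.01. Of the 10 genes, 8 stood below control at 0.5M, 5 at 1M and 8 at 2M, where 48.4%, 43% and 48.2% of all genes past that filter did. Among the 7 members past the filter, those counts were 5, 3 and 5. Junb, counted below at 0.5M, was at -0.0011 log2. With median centring 7, 5 and 10 were below, against 40.5%, 46.9% and 49.5% of all genes past the filter. Of those 10 at 2M, Junb was at -0.0045 log2 and Npas4 at -0.0011. With cyclic loess 7, 6 and 10 were, against 49.2%, 45.6% and 49.6%. Egr1 at 2M was the only value of the 10 genes at least 0.5 log2, a 1.41-fold difference, away from control. At that size 1.25% of all genes past the filter were lower at 2M and 1.24% higher, 0.293% were lower and 0.56% higher at 0.5M, and 2.14% were lower and 1.63% higher at 1M. Fos, Egr1 and Egr2 were below control in all 3 tumour-bearing arrays, and 0 of the 10 genes were above it in all 3. Among all genes past the filter, 27.3% were below in all 3 and 33.4% above, so the 3 of 10 is near the background. Fos and Egr2 had means below that filter, and of the 7 members past it 1 was below control in all 3. The 3 differences share the control array. With cyclic loess scaling 5 genes were below in all 3 arrays, against 28.9% of all genes past the filter, and without the 1M array 6 were below in both others, against 36.4%. Both counts include Fos, Egr2 and Ier2, whose means lay below the filter, while the shares cover only genes past it.

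**Figure D1:**
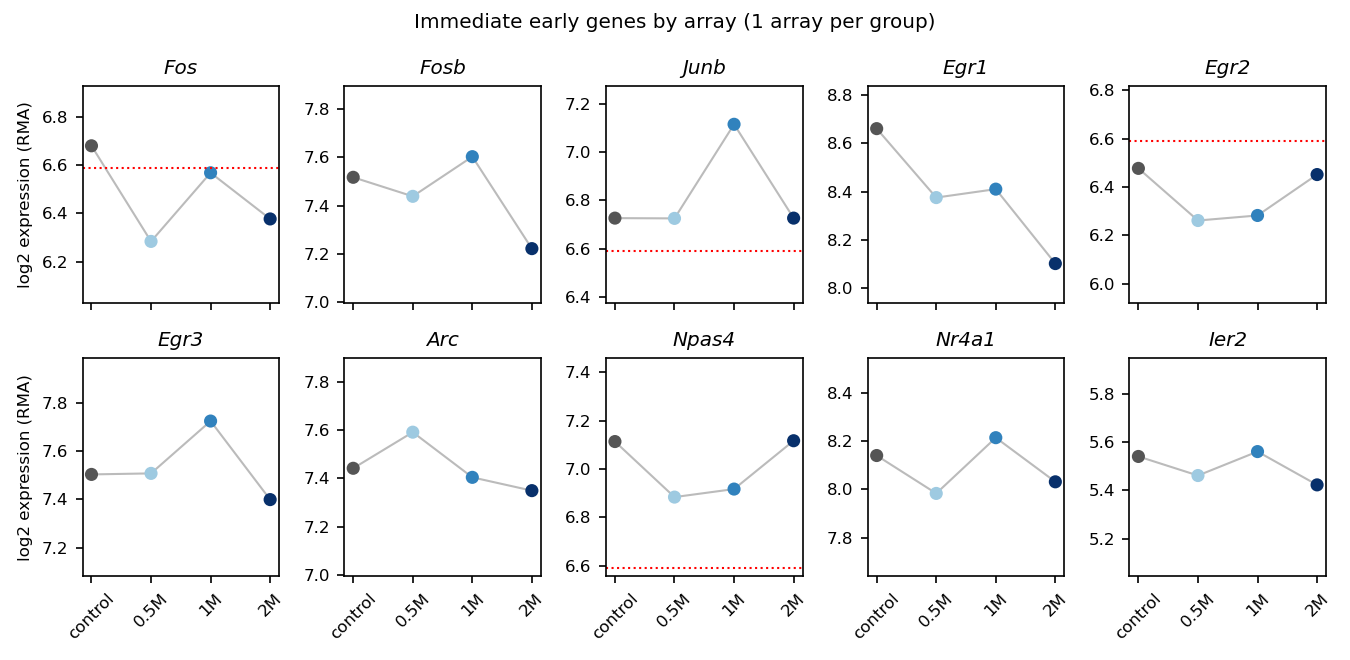
Log2 expression (vertical axis, RMA) of the 10 genes on the control, 0.5M, 1M and 2M arrays (horizontal axis), 1 point per array and the same height of scale in each panel. The dotted red line, drawn where it falls inside a panel, is the filter value of 6.59 log2, and Egr1 has the widest range, from 8.66 in the control to 8.10 at 2M.

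Egr1 encodes a zinc finger transcription factor that is induced by firing and by growth factors in many brain regions. It read 8.66 log2 in the control, 8.38 at 0.5M, 8.41 at 1M and 8.10 at 2M. All 3 tumour-bearing arrays were below the control, and the single animal of 2M was lowest. The differences were -0.29, -0.25 and -0.56 log2, the last a 1.47-fold lower value. Of all genes past the filter, 3.52% lay as low or lower at 0.5M, 10.8% at 1M and 0.911% at 2M. Against control the mean difference was -0.36 ± 0.17 log2 (SD over the 3 tumour-bearing arrays, with no uncertainty of the control), with an unadjusted p of 0.0374 and an adjusted p of 0.437 in limma. In the fit of a linear trend with cell number, the slope was -0.25 ± 0.07 log2 per 1000000 cells (SE). Its unadjusted p was 0.00625 and its adjusted p 0.636 in limma. A step from control can also give a slope, and the single animal of 2M carries most weight in it. The 1M value of 8.41 was not below the 0.5M value of 8.38. Egr1 was the 1 member at an unadjusted p under 0.05 in each fit, where 10.8% of all genes were in the first, 4.61% lower and 6.19% higher, and 6.52% in the trend, 3.18% lower and 3.34% higher.

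Egr2 and Egr3 are close relatives of Egr1 that bind the same DNA motif. Egr2 is also known as a regulator of myelination in peripheral nerve. Egr2 read 6.48 log2 in the control, 6.26 at 0.5M, 6.28 at 1M and 6.45 at 2M, and its mean of 6.37 lay below the filter. Both pooled tumour-bearing arrays were about equally low, at -0.22 and -0.19 log2 from control, and the 2M animal stood at the control level with -0.03. Egr3 read 7.50 log2 in the control, 7.51 at 0.5M, 7.72 at 1M and 7.40 at 2M, so it was highest on the 1M array and lowest at 2M. Its mean difference was 0.04 ± 0.17 log2 (SD over 3 arrays), with an adjusted p of 0.933 in limma. Egr1 was lowest at 2M, where Egr2 was near control, so the 3 relatives did not share an order of arrays.

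Fos and Fosb encode leucine zipper proteins that pair with Jun proteins to form the AP-1 factor, and a truncated Fosb product is known to build up with repeated stimulation. Fos read 6.68 log2 in the control, 6.28 at 0.5M, 6.57 at 1M and 6.38 at 2M. It was below control in all 3 arrays, at -0.40, -0.11 and -0.30 log2, and at 0.5M only 0.978% of all genes past the filter lay as low. Its mean of 6.48 fell below the filter, although the control value alone lay above it. In a fit without the filter its mean difference was -0.27 ± 0.14 log2 (SD over 3 arrays), with an unadjusted p of 0.101 and an adjusted p of 0.691 in limma. Fosb read 7.52 log2 in the control, 7.44 at 0.5M, 7.60 at 1M and 7.22 at 2M. The 2M animal was lowest, at -0.30 log2 from control, where 6.27% of all genes past the filter lay as low, and the 1M array was slightly above control at 0.09. Its mean difference of -0.10 ± 0.19 log2 (SD over 3 arrays) had an adjusted p of 0.839 in limma, and without the 2M array it was 0.0033.

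Junb, a partner of Fos in AP-1, read 6.73 log2 in the control, 6.73 at 0.5M, 7.11 at 1M and 6.73 at 2M. The 1M array alone stood apart, 0.39 log2 or 1.31-fold above control, where 4.82% of all genes past the filter were as high or higher. The deposited values of the control and the 2M array were identical for Junb, as they were for 48 of the 35556 probe sets. Its mean difference was 0.13 ± 0.22 log2 (SD over 3 arrays), with an adjusted p of 0.806 in limma.

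Npas4 encodes a transcription factor largely restricted to neurons and induced by calcium entry rather than by growth factors. It read 7.11 log2 in the control, 6.88 at 0.5M, 6.92 at 1M and 7.12 at 2M. Both pooled tumour-bearing arrays were below control, at -0.23 and -0.20 log2, and the 2M animal matched it. Its mean difference was -0.14 ± 0.13 log2 (SD over 3 arrays), with an adjusted p of 0.681 in limma. Of the pairs of genes among the 10, Npas4 and Egr2 were nearest to each other in pattern, with a Euclidean distance of 0.03 log2 over the 3 differences from control. The next pair was Nr4a1 and Ier2 at 0.10.

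Promoter windows of 300 bases, from 250 before to 50 after the annotated start, were matched in RefSeq (assembly GRCm38.p6) for 6 of the 10 genes, Fos, Fosb, Junb, Egr2, Npas4 and Nr4a1. For Egr2, which has 5 windows, the window with the most motif matches was taken, and the shares below use the same rule for each of the 27025 genes of the table. The reference is C57BL/6J, so bases in CDF1 mice can differ. Shown are Fos and Egr2, which were below control in all 3 arrays, Npas4, the nearest to Egr2 in pattern, and Junb, higher at 1M alone. Each is written in the direction of transcription, with matches to the searched motifs in capitals. They are the CREB-binding core TGACG on either strand (CGTCA when read on the other), the SRF-binding CArG box by its name, and the TATA box TATAAA.
Fos, chr12:85473640-85473939, plus strand: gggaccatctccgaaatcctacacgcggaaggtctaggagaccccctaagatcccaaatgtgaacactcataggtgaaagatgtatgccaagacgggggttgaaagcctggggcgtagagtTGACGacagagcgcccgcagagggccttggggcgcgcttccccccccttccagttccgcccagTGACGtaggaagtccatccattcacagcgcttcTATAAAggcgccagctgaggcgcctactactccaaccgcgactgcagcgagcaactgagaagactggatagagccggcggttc
Egr2, chr10:67537619-67537918, plus strand: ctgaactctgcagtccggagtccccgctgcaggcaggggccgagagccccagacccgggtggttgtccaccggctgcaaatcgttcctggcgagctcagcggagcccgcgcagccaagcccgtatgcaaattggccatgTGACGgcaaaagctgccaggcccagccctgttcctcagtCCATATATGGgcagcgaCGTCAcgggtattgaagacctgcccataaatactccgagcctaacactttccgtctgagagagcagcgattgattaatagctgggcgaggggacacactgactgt
Npas4, chr19:4989922-4990221, minus strand: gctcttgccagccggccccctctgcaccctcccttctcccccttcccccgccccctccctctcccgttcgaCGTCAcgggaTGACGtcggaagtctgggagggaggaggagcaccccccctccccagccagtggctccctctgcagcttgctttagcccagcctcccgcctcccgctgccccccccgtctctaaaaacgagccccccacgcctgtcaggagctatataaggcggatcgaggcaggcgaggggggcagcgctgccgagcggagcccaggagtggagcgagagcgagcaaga
Junb, chr8:84978699-84978998, minus strand: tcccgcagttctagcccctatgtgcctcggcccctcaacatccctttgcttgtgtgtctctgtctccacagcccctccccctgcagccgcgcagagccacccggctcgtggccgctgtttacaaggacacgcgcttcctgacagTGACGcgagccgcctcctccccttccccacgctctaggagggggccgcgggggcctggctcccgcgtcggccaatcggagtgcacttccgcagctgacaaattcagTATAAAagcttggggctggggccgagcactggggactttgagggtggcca

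The CRE core was found in 6 of 6 matched genes, against 22.7% of all genes. Over all 32851 windows, with none chosen, the share was 20.8%. In Fos it begins 129 and 66 bases before the start, the latter just upstream of a TATA box at 33 bases. In Npas4 a pair of cores lies on opposite strands 179 and 169 bases before the start. In Egr2 a CArG box 72 bases before the start lies between cores at 111 and 55 bases. That was the 1 CArG box in the 6 genes, and 1.68% of all genes have one. Junb has a core 106 bases before the start and a TATA box that begins at the annotated start. TATA boxes, searched on both strands, were in 2 of 6 and in 15.3% of all genes. The EGR site, GCGGGGGCG or GCGTGGGCG on either strand, was in Fosb and Nr4a1, 50 and 60 bases before the start, and in 3.73% of all genes. The full CRE TGACGTCA, which contains the core, was in 0 of 6 and 2.03% of all genes, and the AP-1 site TGACTCA or TGAGTCA in 0 of 6 and 5.68%. These are matches of letters in a window, not measured binding.

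**Figure D2:**
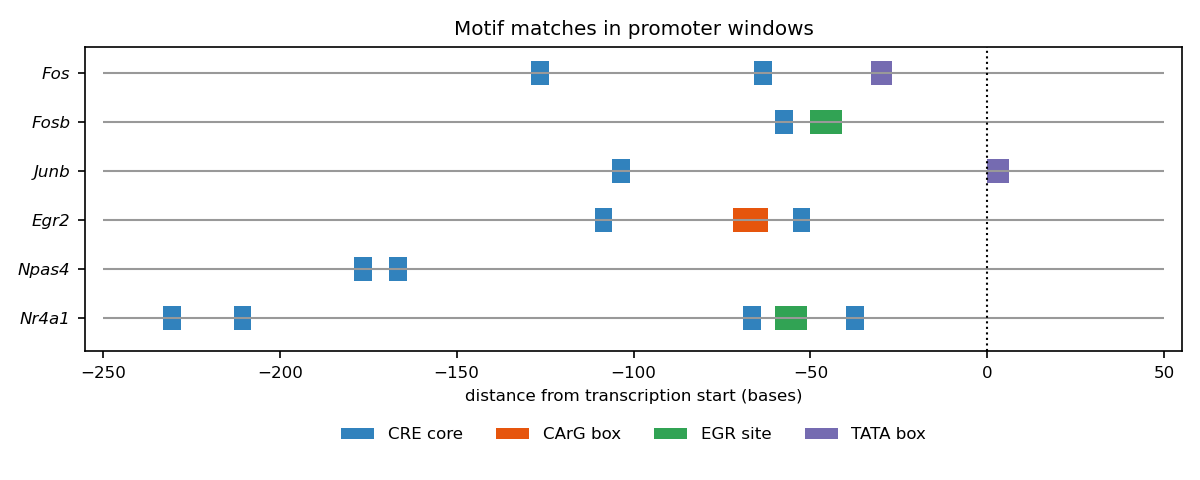
Positions of motif matches in the promoter windows of the 6 matched genes, by distance in bases from the annotated transcription start (dotted line), 1 row per gene and 1 colour per motif. Each of the 6 genes has at least 1 CRE core, and Egr2 alone has a CArG box, 72 bases before the start.

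Nr4a1 encodes an orphan nuclear receptor that binds DNA without a known hormone and is induced by activity and by stress signals. It read 8.14 log2 in the control, 7.98 at 0.5M, 8.21 at 1M and 8.03 at 2M. The 0.5M and 2M arrays were slightly below control, at -0.16 and -0.11 log2, and the 1M array slightly above at 0.07. The mean difference was -0.06 ± 0.12 log2 (SD over 3 arrays), with an adjusted p of 0.863 in limma. Ier2, which encodes a small nuclear protein, was close to Nr4a1 in pattern and read 5.54, 5.46, 5.56 and 5.42 log2 in the control, 0.5M, 1M and 2M arrays. Its range of 0.14 log2 was the narrowest of the 10, and its mean of 5.50 lay below the filter. Its unfiltered mean difference was -0.06 ± 0.07 log2 (SD over 3 arrays), with an adjusted p of 0.918 in limma.

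Arc is the 1 gene among the 10 that acts at the synapse rather than in transcription. Its protein promotes removal of AMPA-type glutamate receptors from the membrane. It read 7.44 log2 in the control, 7.59 at 0.5M, 7.40 at 1M and 7.35 at 2M. The tumour-bearing arrays were in descending order from 0.5M to 2M, with 0.5M above control by 0.15 log2 and 1M and 2M at -0.04 and -0.09. Its mean difference was 0.01 ± 0.13 log2 (SD over 3 arrays), with an adjusted p of 0.989 in limma, and the sign turned with cyclic loess, at -0.012.

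**Figure D3:**
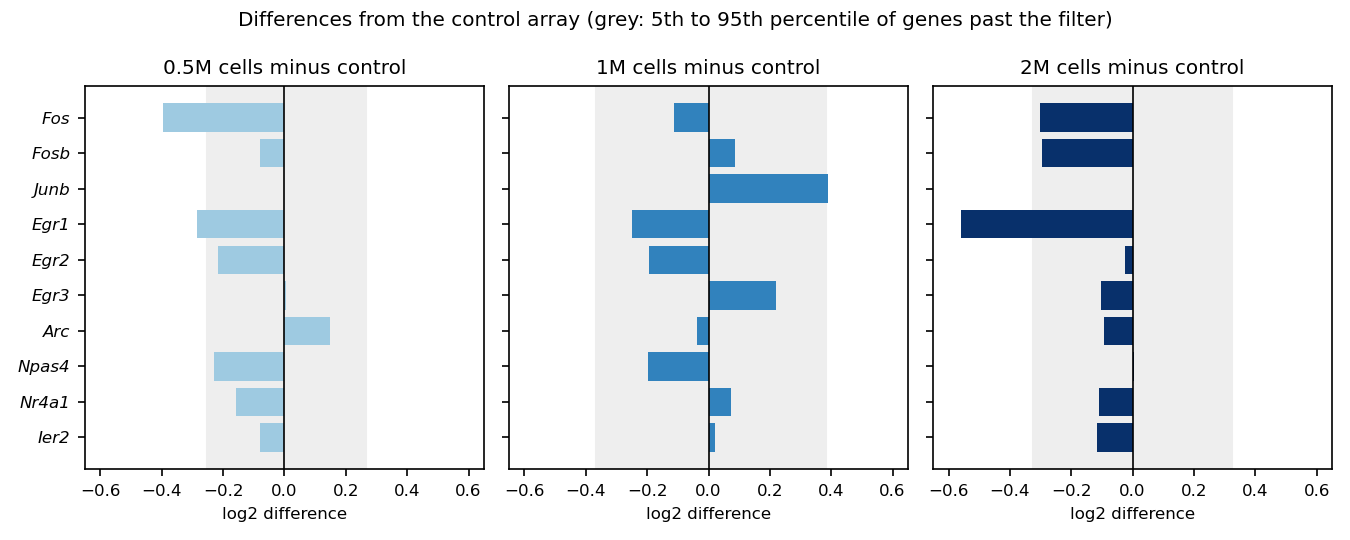
Difference in log2 expression of each gene from the control array (bars, horizontal axis) at 0.5M, 1M and 2M (panels), over the range between the 5th and 95th percentiles of all genes past the filter (grey). Outside that range lie Fos and Egr1 at 0.5M, Junb at 1M and Egr1 at 2M.

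Among the tumour-bearing arrays, the pool of 1M was highest for 7 of the 10 genes, namely Fos, Fosb, Junb, Egr1, Egr3, Nr4a1 and Ier2, where 45% of all genes past the filter had their highest tumour-bearing value at 1M. Junb was 0.39 log2 higher at 1M than at 0.5M and the same amount higher than at 2M, Fosb was 0.38 log2 lower at 2M than at 1M, and Egr3 0.33 lower. Of all genes past the filter, 1.66% lay as low as Fosb in that difference, 1.51% as low as Junb and 2.9% as low as Egr3. Junb, Fosb and Egr3 were singled out here after their values were seen. Npas4 and Egr2 went the other way, 0.20 and 0.17 log2 higher at 2M than at 1M. As high or higher lay 8.02% and 11% of all genes past the filter. These differences do not involve the control array. The 2M animal was the lowest of the 4 arrays for 5 genes, Fosb, Egr1, Egr3, Arc and Ier2, against 21.8% of all genes past the filter. With median centring, and with cyclic loess, 1M was the highest tumour-bearing array for 6 genes and 2M the lowest array for 6. The pools differ in size as well as in cell number, so cell number and the number of mice cannot be told apart.

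Correlations between the arrays were 0.984 to 0.994 over all probe sets, and their medians were 6.72 to 6.77 log2. Neither shows that the arrays were alike, because RMA aligns the distributions and such correlations mostly reflect differences between probe sets. The 0.5M pool stood apart by Gh, the growth hormone gene of the pituitary, at 10.80 log2 against 6.13, 6.91 and 6.85 in the control, 1M and 2M arrays. Its Prl, the prolactin gene, was at 7.80 against 3.95, 4.50 and 4.51. The summed linear level of the 8 measured of 10 pituitary markers was 2795 on the 0.5M array and 790 to 956 on the others. The part of this higher sum in the 0.5M values above was not tested. The median difference of the 8 markers, 0.25 log2 at 0.5M, 0.35 at 1M and 0.20 at 2M, did not set 0.5M apart. Neither did Lhb, at 0.34, 0.38 and 0.33 log2 from control, or Cga, at -0.05, -0.01 and -0.50. Of the 8, only Gh, Lhb and Cga had means past the filter, and a median over 8 does not register a rise limited to Gh and Prl. Without the 0.5M array, 4 of the 10 genes were below control in both others, against 33.6% of all genes past the filter. Markers listed for the hypothalamus were present, with Pmch at 11.40 to 11.80 log2 and Oxt at 9.77 to 10.59. Their median difference over 15 of 16 measured in log2 was 0.15 on the 0.5M array, 0.20 on 1M and 0.36 on 2M. In all 3 arrays 9 of 15 were above control and 1 below, against 33.4% and 27.3% of all genes past the filter. By the rule for named genes the list was led by Oxt, at 0.79, 0.81 and 0.62 log2 from control. The feeding peptide gene Npy followed at 0.41, 0.20 and 1.41, and the vasopressin gene Avp at 0.50, 0.56 and 0.55. Pomc was the 1 gene below control in all 3 arrays, at -0.20, -0.21 and -0.46 log2. Pan-neuronal markers lay near control, with medians of -0.01, -0.07 and -0.01 log2 over 12 of 12 and summed linear levels of 34808 to 35461. Of the 12, 5 were below control in all 3 arrays and 1 above, beside the same 27.3% and 33.4%. Nefm, a neurofilament gene, was the largest of their differences, at -0.41, -0.29 and -0.54 log2, followed by Tubb3, a neuronal tubulin gene, at -0.21, -0.18 and -0.17, and Gap43, a growth cone protein gene, at -0.14, -0.16 and -0.19. Syt1, the 1 above control in all 3 arrays, was at 0.18, 0.11 and 0.14. Markers of cortex and hippocampus had medians of 0.03, 0.10 and 0.06 log2 over 9 of 11, of striatum 0.28, 0.10 and 0.09 over 7 of 10, and of thalamus -0.02, 0.01 and -0.03 over 10 of 10. In glial and vascular lists the medians lay between -0.14 and 0.09 log2 except at 2M, with -0.35 for oligodendrocytes and -0.27 for microglia.

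A list of other immediate early genes, outside the 10, had medians above control. Of 28 measured of 30 listed, 14 were above control in all 3 arrays and 5 below, against 33.4% and 27.3% of all genes past the filter, and the median difference in log2 was 0.02 on the 0.5M array, 0.11 on 1M and 0.12 on 2M. Of the 21 past the filter, 0 passed limma in either fit. At an unadjusted p under 0.05 stood 4 higher and 0 lower in the comparison with control, and 1 higher and 2 lower in the trend, beside the shares of all genes given for Egr1. The largest mean differences were those of Myc, a growth-regulating transcription factor, at 0.41, 0.32 and 0.47 log2, Gadd45g, a stress-response gene, at 0.13, 0.63 and 0.41, and Klf2, a Krüppel-like factor of blood vessels, at 0.21, 0.57 and 0.38. Their adjusted p-values in limma were 0.375, 0.485 and 0.433. Relatives of the 10 genes in this list, singled out after their values were seen, lay on both sides of control. Nr4a2 was at -0.26, -0.59 and -0.11 log2 from control, Nr4a3 at -0.14, -0.08 and -0.31 and Egr4, with a mean below the filter, at -0.25, 0.01 and -0.23. Jund was at 0.12, 0.50 and 0.16, highest at 1M like Junb, and Jun at -0.08, -0.02 and -0.01. The Fos relatives Fosl1, with a mean below the filter, and Fosl2 were at 0.08, 0.12 and 0.28 and at -0.12, 0.01 and -0.04. Ier5, with a mean below the filter, was at 0.25, 0.55 and 0.26, Ier5l at -0.08, 0.20 and 0.06, and Ier3, which shares only the name, at 0.33, 0.54 and 0.24.

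Delayed activity-regulated genes, which the immediate early factors and calcium signalling switch on later, had medians of 0.02, -0.02 and -0.04 log2 over 24 of 24. In all 3 arrays 7 were above and 10 below control, beside the same 33.4% and 27.3%. Gpr3, a receptor that raises cyclic AMP, was at -0.52, -0.55 and -0.50 log2, with an unadjusted p of 0.000849 and an adjusted p of 0.313 in limma. Nefm, which the list shares with the pan-neuronal markers, and Nrn1, a neurite-promoting surface protein gene, at -0.36, -0.47 and -0.28 log2, each had an adjusted p of 0.375 in limma. In this list 0 of 22 past the filter passed limma in either fit, with 0 higher and 3 lower at an unadjusted p under 0.05 in the comparison with control and 2 higher and 1 lower in the trend.

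Kinases and transcription factors upstream of the immediate early genes had medians of 0.03, -0.02 and 0.04 log2 over 23 of 31, with 8 above and 5 below control in all 3 arrays, beside 33.4% and 27.3% of all genes. Crtc1, a coactivator of CREB, was at 0.27, 0.49 and 0.30 log2, Elk1, a partner of SRF, at 0.17, 0.29 and 0.46, and Camk2b, a calcium-dependent kinase, at 0.24, 0.35 and 0.24. In limma 0 of 23 passed in either fit, and an unadjusted p under 0.05 was reached by 2 higher and 0 lower against control and by 1 higher and 0 lower in the trend. Feedback inhibitors had medians of -0.005, 0.04 and 0.09 log2 over 18 of 18, with 5 above and 2 below in all 3 arrays, beside the same shares. Of these, Sik1, Crem, Zfp36 and Btg2 are also in the list of other immediate early genes. Dusp6, a phosphatase that switches off ERK kinases, was at 0.34, 0.31 and 0.45 log2 with an adjusted p of 0.375 in limma, Dusp1, a phosphatase also induced by glucocorticoids, at -0.08, 0.29 and 0.49, and Btg1 at 0.07, 0.29 and 0.31. Here too 0 of 16 past the filter passed limma in either fit, and an unadjusted p under 0.05 was reached by 1 higher and 0 lower against control and by 3 higher and 0 lower in the trend.

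Glucocorticoid-responsive genes, listed because stress hormones also induce genes of the lists above, such as Dusp1 and Per1, lay mostly above control. Their medians were 0.31, 0.38 and 0.53 log2 over 15 of 16 measured, and 13 were above control in all 3 arrays and 0 below, against 33.4% and 27.3% of all genes past the filter. Like the other lists, this one was chosen with earlier results of these data known, so its counts are not independent support. Plin4, a lipid droplet protein gene, was at 1.19, 1.46 and 1.61 log2, with an adjusted p of 0.119 in limma, and Arrdc2 and Sult1a1 had mean differences of 0.60 and 0.52. In limma 0 of 15 passed in either fit. At an unadjusted p under 0.05 stood 11 higher and 0 lower against control, where 6.19% of all genes were higher and 4.61% lower, and 10 higher and 0 lower in the trend, where 3.34% and 3.18% were.

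**Figure D4:**
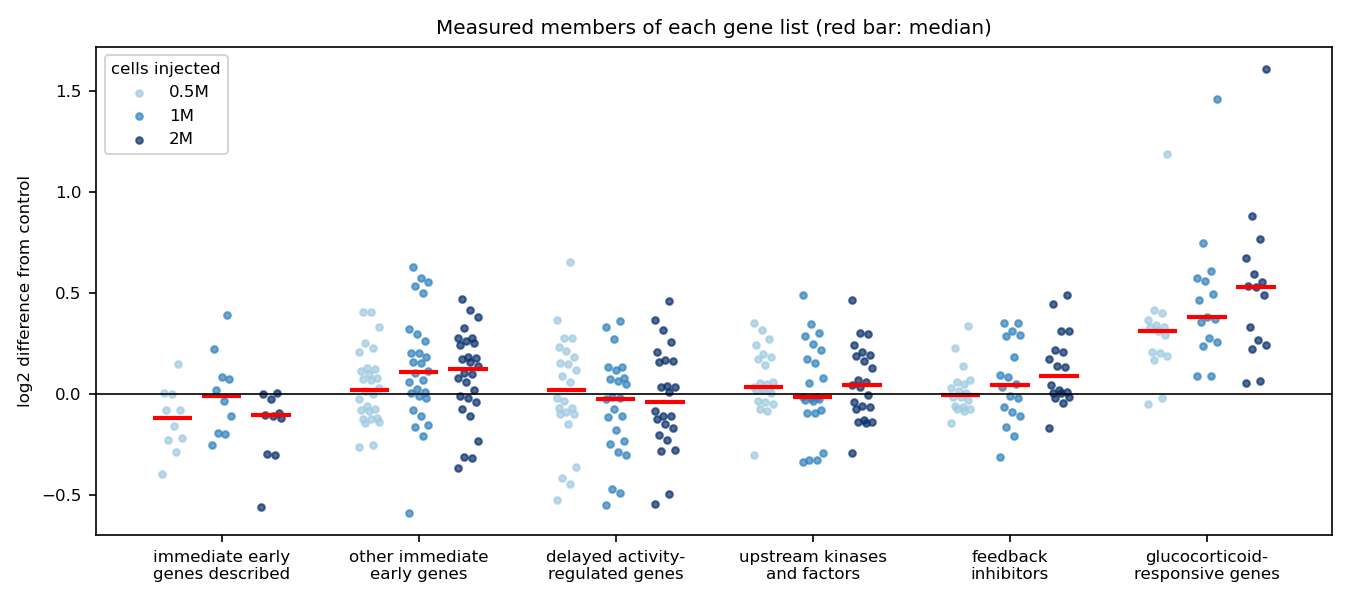
Log2 difference from control (vertical axis) of each measured gene in 6 lists (horizontal axis), with 1 column of points for each of 0.5M, 1M and 2M and a red bar at the median. The medians of the 10 genes described, on the left, are -0.12, -0.01 and -0.11, and those of the glucocorticoid-responsive genes, on the right, 0.31, 0.38 and 0.53.

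Among genes past the filter, the pattern of Egr1, the one of the 10 with the widest range, was compared with the 11956 genes that are not among the 10 by Euclidean distance over the 3 differences from control. The nearest was Slc14a1, a urea transporter gene, at a distance of 0.04 log2, with differences of -0.27, -0.22 and -0.59. Acss2, which makes acetyl-CoA from acetate, and Rcn3 followed at 0.05, then Zfp780b and Tlcd1 at 0.06. In all, 11 genes lay within 0.1. With 3 differences that share 1 control array, such likeness describes these arrays only.

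**Figure D5:**
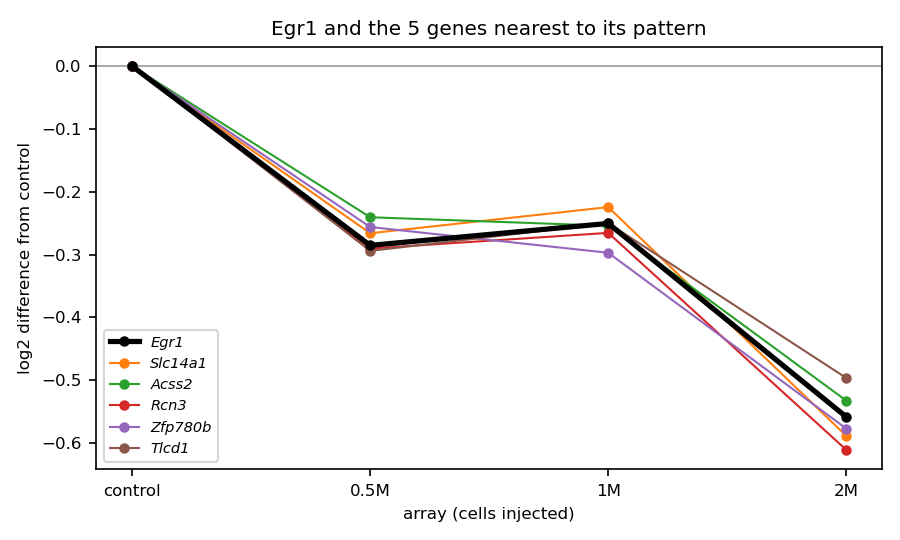
Log2 difference from the control array (vertical axis) of Egr1 (thick black line) and the 5 genes nearest to it, on the control, 0.5M, 1M and 2M arrays (horizontal axis). All 6 lines lie below 0 on the tumour-bearing arrays and are lowest at 2M, where Egr1 is at -0.56.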

How the data were processed

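Hypothalamic RNA was measured on 4 arrays, 1 per group. The deposited values are log2 expression per probe set, which the authors obtained by RMA according to the submitters' processing notes. Its version and software were not given in the sources used here. A change shared by every transcript is lost in its quantile alignment. The table had 35556 probe sets and 0 missing values, and the number of columns with no sample was 0. The platform's annotation listed 23410 probe sets, 21789 with 1 symbol, 1621 with several and 12146 not listed. By Entrez number 21698 matched the RefSeq table of GRCm38.p6, and 0 symbols changed. The probe set with the highest mean stood for a gene.

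From these values the differences from control were computed here. Counts and tests used the 11963 genes with a mean at or above the 40th percentile, 7 of the 10 immediate early genes among them. Fos, Egr2 and Ier2 were below it. In R 4.3.3, limma 3.58.1 (lmFit, eBayes, two-sided, Benjamini-Hochberg over all genes past the filter, threshold 0.05) compared the 3 tumour-bearing arrays with the control, and fitted a slope on the number of cells. Both fits leave 2 residual degrees of freedom. The error of the comparison with control is the spread between cell numbers, and the lone control is assumed to vary alike. The error of the slope is the departure of all 4 arrays, control included, from a straight line. No label says that pools are replicates, so p-values measure only the spread between these arrays. The fits were tested on simulated data. The number of arrays limits the precision. Over all genes, 6 passed higher and 0 lower against control (0.0502% and 0%), with 1292 at an unadjusted p under 0.05, and 0 in the trend, with 780. The remaining values were made with pandas 2.3.3 and numpy 2.4.6 in Python 3.11.15, and plots with matplotlib 3.10.9.

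By the rule, named genes were all 10, up to 3 per other list with the largest mean difference among genes past the filter, and the 5 genes nearest to the widest-ranging member. Lists of neighbouring tissues, glia and vessels are given by medians. Gh, Lhb and Cga rank by the rule, while Prl, Pmch, Pomc, Syt1 and the relatives of the 10 genes were named after their values were seen. Members and lists were chosen with earlier results of these data known. Alternatives tried were no filter, a 60th percentile filter, median centring, cyclic loess, averaged probe sets, sizes of 0.3 and 1 log2, and leaving out each tumour-bearing array. Motifs were searched in RefSeq promoter windows, with no genome used here.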

Additional observations from a re-analysis of the deposited data

How the results depend on the processing

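No paired analysis was possible because each group was 1 array. In both fits 0 of the immediate early genes tested passed limma, whether 10 were tested (no filter), 2 (60th percentile filter, Egr1 and Nr4a1) or 7 (the other alternatives), and of 126 recomputed summaries 109 kept their value within the limits set and 17 moved. The median of the 10 genes at 1M was -0.095 log2 with cyclic loess and 0.07 over the members past the filter only. At a size of 0.3 log2, 1 gene was lower at 0.5M, 1 higher at 1M and 2 lower at 2M, where 3.02%, 10.3% and 5.98% of all genes were, and at 1 log2 0 were lower at 2M. The count below control in all 3 arrays was 5 with cyclic loess, 1 among members past the filter and 6 without the 1M array, and 1 gene was above control in both others without the 2M array. Genes that passed limma against control numbered 2 with the 60th percentile filter, 1 with no filter and 3 without the 1M array. In the trend 24 passed higher and 14 lower without the 0.5M array, and 28 and 30 without the 1M array. The sign against control turned for Fosb without the 2M array (0.0033 log2), Junb and Egr3 without the 1M array (-0.00057 and -0.050), and Arc with cyclic loess (-0.012) and without the 0.5M array (-0.065). The slope turned for Junb with cyclic loess (-0.0041) and, without the 2M array, for Fosb (0.085), Egr3 (0.22), Npas4 (-0.20) and Nr4a1 (0.074). The slope of Junb without the 0.5M array was 0. Another 91 recomputed values of single genes, those of Egr1 among them, kept their direction. Egr1 ranged from -0.42 to -0.27 log2 against control, with adjusted p-values in limma of 0.324 to 0.819. The causes were not tested. With 1 array per group, differences of the size seen for most of these genes cannot be told from the spread between arrays.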
